A study of Macaca mulatta with 144 samples.

Results

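miR-486-5p, miR-486-3p, miR-451 and miR-144 are 4 mature miRNAs known for their abundance in red cells, and they were taken from the raw serum count table by name (mml-miR-486-5p, mml-miR-486-3p, mml-miR-451 and mml-miR-144), 4 of its 908 miRNAs. All 4 were among the 626 miRNAs with at least 1 count and among the 290 that were tested, each counted in 40% or more of the libraries. The NHPs were 36 rhesus macaques (Macaca mulatta), 19 males and 17 females, given total-body irradiation (TBI) with 60Co gamma rays in 6 radiation dose (RD) groups of 6 animals each, at steps of 0.5 Gy between 6.0 and 8.5 Gy. Serum was drawn on days 1, 2 and 6 after irradiation and, as baseline, before it, which gave 4 libraries per animal and 144 in all. Of the 36 animals 15 survived and 21 were labelled deceased, and ages were not in the labels. No unirradiated animals were followed over the same days, so the time since irradiation (TSI) and the repeated blood draws cannot be told apart. All animals received supportive care, and blood was drawn before any transfusion.

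miR-144 and miR-451 are made from one transcript that the erythroid factor GATA1 switches on, and in the RefSeq annotation of the macaque (T2T-MMU8v2.0) the MIR451 and MIR144 genes stand next to each other. miR-451 is unusual in that AGO2 cuts its short hairpin without Dicer, as shown in mice and zebrafish, and it restrains Ywhaz in mouse erythroid cells. miR-486-5p and miR-486-3p are the opposite arms of one hairpin, which in humans lies in an intron of ANK1, the gene of the red cell membrane anchor ankyrin. The 5p arm is the abundant one, and it rises as human erythroid progenitors mature. Red cells keep these miRNAs after they lose their nucleus, and cells that break up before or during the blood draw release them into serum. In serum, more cells of a type, more release per cell and slower clearance cannot be told apart.

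Library totals ranged from 11174 to 4118401 counts with a median of 280254.5, and 7 libraries had less than 10% of that median (3 of day 6, 2 of day 2, 1 of day 1 and 1 of the baseline). Every miRNA had the same count in the baseline library of RA2265F (7.0 Gy) and the day 1 library of RA2694M (8.0 Gy). They were kept under their labels, and results were recomputed without them and without the 7 shallow libraries. The pre-irradiation library titled RA2816M carries the name RA2616M in its description and was used under its title. The labels give no sequencing batch. Exact binomial 95% intervals, which cover counting error only, reached at most 0.635 percentage points on either side of a miR-486-5p share in any library. miR-486-3p was counted far more thinly, with a median of 40.5 counts per library and fewer than 10 counts in 30 libraries.

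miR-486-5p was the most abundant miRNA in each of the 144 libraries and took 70.7% of all counts. Its share of the library ran between 38.1% and 93.3%. miR-451 followed at a median share of 0.517% (0.0156% to 2.31%), and it was the tenth miRNA by median share. miR-144 had a median share of 0.0440% (0% to 0.293%) and was number 49 by median share. miR-486-3p, the other arm of the dominant hairpin, had a median share of 0.0170% (0% to 0.0623%) and was number 78. The 4 miRNAs together made 38.8% to 93.4% of a library, and this sum was nearly all miR-486-5p. Shares of counts also depend on how well each sequence is ligated and read, so they are not ratios of molecules.

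The order of the 4 miRNAs by median share was the same at every TSI. The share of miR-486-5p had a median of 73.6% on day 1 (38.1% to 92.3%), 71.4% on day 2 (41.9% to 93.3%) and 73.1% on day 6 (42.1% to 91.5%), against 69.8% before irradiation (49.7% to 89.7%). The median share of miR-451 was 0.524%, 0.486% and 0.496% on days 1, 2 and 6, against 0.565% before irradiation. That of miR-144 was 0.0493%, 0.0653% and 0.0320% on days 1, 2 and 6, against 0.0456% before irradiation. For miR-486-3p the medians were 0.0158%, 0.0215% and 0.0135% on days 1, 2 and 6, against 0.0231% before irradiation. At each TSI the 36 values spread widely and overlapped the baseline for all 4 miRNAs.

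**Figure D1:**
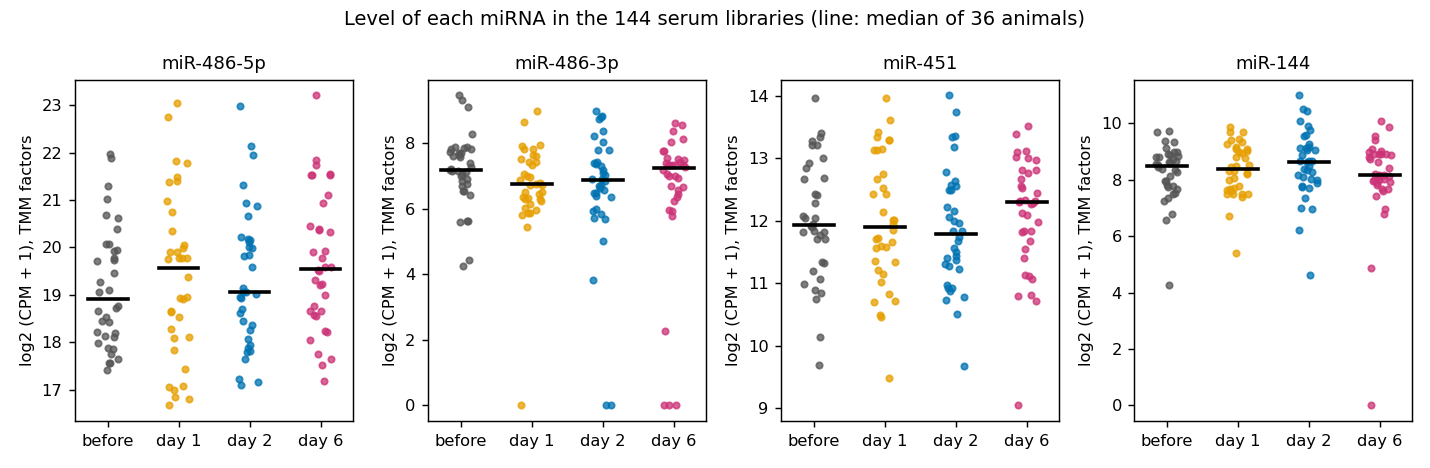
Level of miR-486-5p, miR-486-3p, miR-451 and miR-144 in each of the 144 libraries, as log2 (CPM + 1) with TMM-scaled library sizes (y axis), before irradiation and at days 1, 2 and 6 (x axis); each point is 1 animal and each line the median of 36. The median of miR-486-5p lies between 18.9 and 19.6 at each of the 4 times, and 6 libraries of miR-486-3p and 1 of miR-144 sit at 0.

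On the level scale used for the tests, log2 (CPM + 1), where CPM are counts rescaled to a common library size by trimmed mean of M values (TMM) factors, miR-486-5p had a median of 19.56 on day 1, 19.05 on day 2 and 19.55 on day 6, against 18.90 before irradiation. Its highest level, 23.21, lies above the largest value plain CPM can take because the TMM factors of such libraries are below 1. miR-451 had medians of 11.90, 11.78 and 12.29 on days 1, 2 and 6, against 11.93 before irradiation. miR-144 had medians of 8.39, 8.63 and 8.16 on days 1, 2 and 6, against 8.48 before irradiation, and miR-486-3p had medians of 6.74, 6.87 and 7.22, against 7.18. The spread between animals (SD, n = 36) on day 6 was 1.44 for miR-486-5p, 0.92 for miR-451, 1.68 for miR-144 and 2.24 for miR-486-3p.

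None of the 4 miRNAs passed the test against baseline on any day. Over all tested miRNAs, edgeR's quasi-likelihood test with Benjamini-Hochberg adjustment called 6.55% on day 1, 0.69% on day 2 and 6.55% on day 6, with 39, 32 and 57 of 290 below an unadjusted p of 0.05. miR-486-5p had a log2 (Fold change) of 0.64 on day 1 (SE 0.36, adjusted p = 0.405 by edgeR), 0.38 on day 2 (SE 0.36) and 0.67 on day 6 (SE 0.36, adjusted p = 0.273 by edgeR). Scaled to plain library totals its values were -0.01, 0.00142 and 0.04, while the median of all tested miRNAs moved to -0.38 on day 6. miR-486-5p makes up most of the counts, so its value can move little on that scale. miR-144 was the only one of the 4 with an unadjusted p below 0.05, and that was on day 2 at 0.50 (SE 0.22, adjusted p = 0.278 by edgeR). miR-451 had the smallest values, at 0.03, -0.12 and 0.03 on days 1, 2 and 6 (SE 0.22 each). miR-486-3p had negative values on all 3 days (-0.44, -0.18 and -0.32, SE 0.24 each), with adjusted p between 0.405 and 0.745 by edgeR.

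Of the 12 changes of share, that of miR-486-3p on day 1 had the lowest p, although it was small in percentage points. On day 1 it averaged 0.0163% ± 0.0128 against 0.0248% ± 0.0167 before irradiation (SD, n = 36 each), and it was lower in 24 of 36 animals. The mean difference was -0.00845 percentage points (permutation p = 0.00448, adjusted over the 12 share tests 0.0538). On day 6 the mean difference was -0.00827 percentage points, with 21 of 36 animals lower (permutation p = 0.0133, adjusted 0.0801). Neither passed after adjustment. The share of miR-486-5p differed from baseline by a mean of -0.54 percentage points on day 1, 0.0692 on day 2 and 1.77 on day 6, each smaller than its SE of 2.43 to 3.15.

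miR-486-3p had no counts in 6 libraries and miR-144 in 1. The 6 libraries were those of RA2689M on day 1 (8.0 Gy), RA2691M (7.5 Gy) and RA2116F (8.5 Gy) on day 2, and RA2021F (7.0 Gy), RA2816M (8.0 Gy) and RA2743F (8.5 Gy) on day 6. All were after irradiation, where days 1, 2 and 6 had 36 libraries each, against 36 before it. Those of RA2691M, RA2116F, RA2021F and RA2743F were among the 7 shallow libraries, of which only 1 was of the baseline. In all 6, miR-486-5p was high, at 87.8% to 92.3% of the counts and a level of 20.9 to 22.7. A count of 0 allows a miR-486-3p share of up to 0.0268% in the shallowest of them (RA2021F) and 0.00117% in RA2689M, the deepest. RA1782F (6.5 Gy) on day 6 had 1840802 counts, of which 2 were miR-486-3p, 15 were miR-144 and 1594548 were miR-486-5p. The share of miR-486-3p there was 0.000109% (exact 95% interval 1.32e-05% to 0.000393%).

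Ratios of 2 miRNAs within a library do not depend on how libraries are scaled. Thin counts still limit them, and miR-144 had fewer than 10 counts in 19 libraries and miR-451 in 2. The ratio of miR-451 to miR-144, which share a transcript, had a median of 12.3 on day 1 (4.13 to 44.3), 8.72 on day 2 (3.0 to 41.7) and 15.6 on day 6 (4.68 to 61.1), against 12.8 before irradiation (5.74 to 63.7). On day 2 it fell by 0.48 on the log2 scale (SE 0.14, lower in 27 of 36 animals, permutation p = 0.00154, adjusted over the 18 ratio tests 0.0277). The groups still overlapped widely. On days 1 and 6 the changes were -0.14 (SE 0.16) and 0.08 (SE 0.16), and they did not pass. Without the shallow and identical libraries the day 2 change was -0.46 and the adjusted permutation p was 0.0927. Leaving out 1 animal at a time gave changes of -0.53 to -0.42 with adjusted permutation p of 0.00414 to 0.059, and the call was lost without RA1547M, RA2816M, RA2691M, RA2685M, RA2689M, RA1938M or RA2592M.

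**Figure D2:**
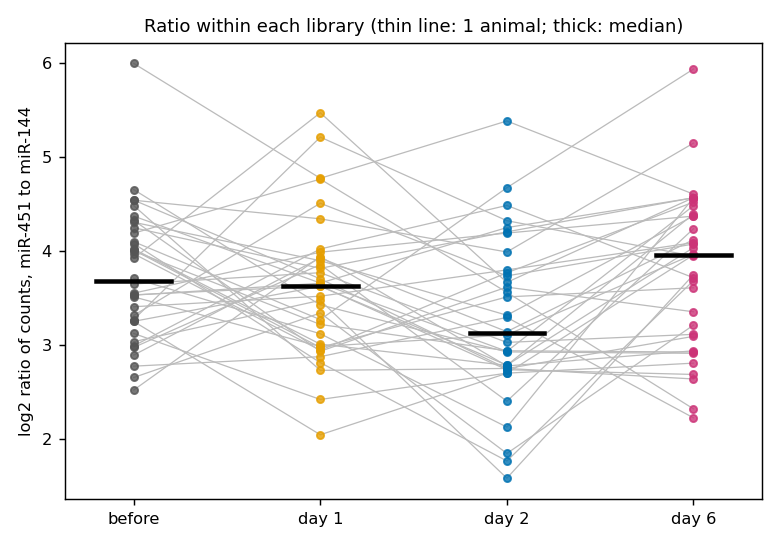
Log2 ratio of miR-451 to miR-144 counts (0.5 added to each, y axis) in the same library, before irradiation and at days 1, 2 and 6 (x axis); points are animals, thin lines join the 4 libraries of 1 animal and thick lines are medians of 36. The day 2 median of 3.12 lies below the medians of day 1 (3.63), day 6 (3.96) and the baseline (3.68), with wide overlap of the points.

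By RD, the median miR-451 to miR-144 ratio on day 2 was 10.3, 17.1, 7.53, 5.17, 9.14 and 7.20 from 6.0 to 8.5 Gy. Before irradiation the same groups had medians of 13.3, 20.2, 9.74, 8.08, 15.9 and 12.8. All 6 day 2 medians were below their own baseline, and the groups of 6 overlapped in each pair. Averaged over days 1, 2 and 6, the log2 ratio had a slope of -0.32 per Gy (SE 0.11, permutation p = 0.00713, adjusted 0.0642), which did not pass. Before irradiation the slope was -0.12 per Gy (SE 0.14), and the slope of the change was -0.19 per Gy (SE 0.15, adjusted permutation p = 0.393).

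The ratio of the 5p to the 3p arm of miR-486 varied widely, and before irradiation alone it ran between 916 and 151278. Its median was 4686, 3256 and 5677 on days 1, 2 and 6, against 2851 before irradiation. The day 6 log2 change was 0.74 (SE 0.35, higher in 23 of 36 animals, permutation p = 0.0415, adjusted 0.201), and it did not pass. The ratio of miR-486-5p to miR-451 had medians of 126 on day 1, 142 on day 2 and 143 on day 6, against 117 before irradiation, with adjusted permutation p of 0.393 to 0.53. Of 18 ratio tests only the day 2 change of miR-451 to miR-144 passed.

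Against RD, with TMM factors and the counts of days 1, 2 and 6 summed per animal, miR-486-5p was lower at higher doses. Its slope was -0.80 log2 units per Gy (SE 0.19, n = 36, adjusted p = 0.00279 by edgeR), among the 11% of tested miRNAs that were called (4 rose and 28 fell with RD). miR-144 had 0.27 per Gy (SE 0.12, adjusted p = 0.166 by edgeR), miR-451 -0.12 (SE 0.13) and miR-486-3p -0.01 (SE 0.13), none of which passed. Before any dose was given, the same animals already had a slope of -0.62 for miR-486-5p against the dose assigned later (SE 0.22, unadjusted p = 0.00684, adjusted p = 0.220 by edgeR), where 0.69% of miRNAs were called. Without RA0724F, an animal of the 6.0 Gy group, that baseline slope was -0.34 (SE 0.22, adjusted p = 0.961 by edgeR). The slope of the change from baseline on RD did not pass (0.10 per Gy, SE 0.32, adjusted p = 0.997 by edgeR), and 0 of 290 miRNAs passed that test, with 7 below an unadjusted p of 0.05.

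The call on the slope of miR-486-5p after irradiation depended on 1 animal. RA0724F (6.0 Gy, female) had miR-486-5p shares of 85.9% on day 1 (exact 95% interval 85.8% to 86.0%), 90.0% on day 2 (89.9% to 90.2%) and 88.1% on day 6 (88.07% to 88.13%), against 89.7% before irradiation (89.55% to 89.78%). Its day 6 library was the deepest of the series, with 4118401 counts, and it had the smallest TMM factor (0.0907). Without RA0724F the slope was -0.46 per Gy (SE 0.17, adjusted p = 0.133 by edgeR), and 7 in place of 32 miRNAs were called. With the 3 log2 levels of each animal averaged, so that each library had the same weight, the slope was -0.33 (SE 0.13, adjusted p = 0.327 by limma), and 0 of 290 miRNAs were called.

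**Figure D3:**
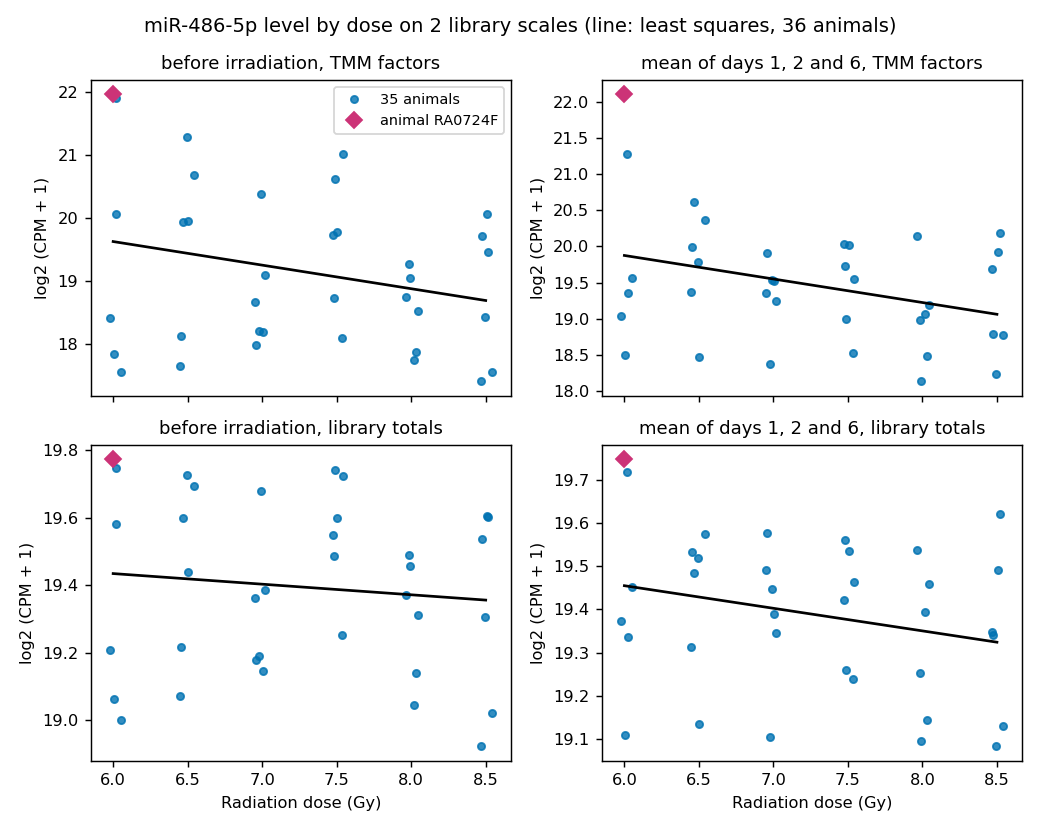
Level of miR-486-5p, log2 (CPM + 1), against radiation dose (x axis, Gy) for the 36 animals, before irradiation (left) and as the mean of days 1, 2 and 6 (right), with TMM factors (top) and plain library totals (bottom); lines are least-squares fits and the diamond is RA0724F. With TMM factors the slopes are -0.37 before irradiation and -0.33 after it, and with library totals they are -0.03 and -0.05. miR-486-5p makes up most of the counts, so it can move little with library totals.

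The scale of the libraries mattered as much. With plain library totals the slope of the summed counts was -0.06 per Gy (adjusted p = 0.445 by edgeR) while the median of all tested miRNAs moved to 0.27, so miR-486-5p lay 0.33 below that median. miR-486-5p makes up most of the counts, so its value can move little on that scale. The SD of its level over 144 libraries was 0.32 there, against 1.49 with TMM factors. With the total of all other miRNAs as scale its slope was -0.28 (adjusted p = 0.172 by edgeR), and with DESeq2 size factors -0.84. On the first 2 of these scales miR-144 had the steeper slope, at 0.53 and 0.42 per Gy, neither passing. Relative to the median of all tested miRNAs on each scale, miR-144 was at 0.26 and 0.25. miR-486-5p was farther from that median, at -0.33 and -0.45. On single days the slopes were -0.48, -0.11 and -0.34 on days 1, 2 and 6, and none passed.

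The shares by RD group showed how little the groups separated. On day 6 the median miR-486-5p share was 79.3%, 71.2%, 65.8%, 77.1%, 62.7% and 81.0% from 6.0 to 8.5 Gy, with the highest value in the highest RD group. On day 1 the medians were 81.6%, 78.0%, 80.8%, 56.7%, 72.1% and 53.1%. On day 2 they were 71.5%, 77.5%, 71.1%, 76.1%, 67.1% and 75.1%. Before irradiation they were 69.6%, 75.2%, 63.7%, 78.1%, 66.5% and 70.5%. The groups of 6 overlapped at every time, with shares from 38.1% to 87.4% in the 8.5 Gy group on day 1 alone.

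**Figure D4:**
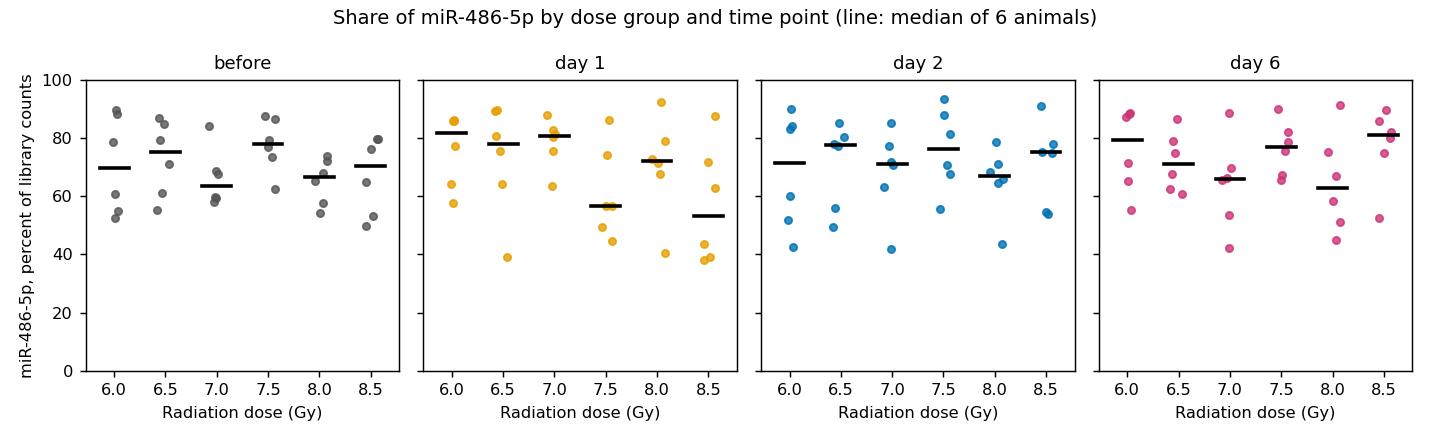
Share of miR-486-5p in the counts of each library (y axis, percent) by radiation dose (x axis, Gy) before irradiation and at days 1, 2 and 6; points are animals and lines medians of 6. On day 1 the medians run between 53.1% at 8.5 Gy and 81.6% at 6.0 Gy, and on day 6 the 8.5 Gy group has the highest median, 81.0%.

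Of the other red cell miRNAs listed beside the 4, 3 of 13 tested (of 14 listed) were called by RD after irradiation, where 11% of all miRNAs were called, and 4 of the 13 had slopes above 0. The 3 were miR-92a-3p (-0.90 per Gy, adjusted p = 0.000701), miR-182 (-1.41, adjusted p = 0.000701) and miR-484 (-0.58, adjusted p = 0.00628), which fell with RD by edgeR. miR-92a-3p (-0.80 per Gy) and miR-182 (-1.14) had already passed against the assigned dose before irradiation (adjusted p = 0.0304 each by edgeR), and they were the whole 0.69% called there. Without RA0724F only miR-182 of these passed after irradiation (-1.20 per Gy, adjusted p = 0.0339 by edgeR), and before it none did. The median slope of the 13 after irradiation was -0.11, against 0.02 for all 290. Over time, miR-182 was higher on day 1 (log2 (Fold change) 1.51, adjusted p = 0.0372 by edgeR) and on day 6 (1.66, adjusted p = 0.0243 by edgeR), where 6.55% were called on either day, and the other 12 did not pass on any day. The list, without the 4 miRNAs, held a median of 8.41% of counts on day 1, 7.57% on day 2 and 8.02% on day 6, against 8.04% before irradiation. Most of that was miR-92a-3p, with a median share of 5.86%, followed by miR-16-5p at 0.792%, so the sum says little about the other members. Of 5 lists for other cell types, those for lymphocytes, leukocytes and myeloid cells, platelets and endothelium, and liver had lower median shares on all 3 days than at baseline, and that for muscle was higher on days 1 and 2 (0.00510% and 0.00288%) and lower on day 6 (0.000762%) than its baseline (0.000907%). Shares are scaled to library totals. On that scale the median log2 (Fold change) of all 290 tested miRNAs was also below 0, at -0.06, -0.18 and -0.38 on days 1, 2 and 6. For 4 lymphocyte miRNAs (miR-150-5p, miR-342-3p, miR-155 and miR-146a-5p) the medians were 0.147%, 0.115% and 0.101% on days 1, 2 and 6, against 0.248% before irradiation. For 3 leukocyte and myeloid miRNAs they were 0.186%, 0.166% and 0.140%, against 0.276%, and for 3 platelet and endothelial miRNAs 0.503%, 0.549% and 0.477%, against 0.785%. With TMM factors the median log2 (Fold change) of the lymphocyte list was 0.23 on day 1, with 3 of 4 above 0 and none called. On days 2 and 6 it was -0.65 and -0.45, with 1 of 4 called lower on each day. The leukocyte and myeloid list had -0.16, -0.30 and -0.65 on days 1, 2 and 6, with none above 0 and 2 of 3 called lower on day 6. The platelet and endothelial list had -0.19, -0.21 and 0.09, and liver -0.60, -0.17 and 0.19, with none called. Of the 4 muscle miRNAs only 1 was tested. It had 2.04, 0.49 and 1.02 on days 1, 2 and 6, and it was called higher on day 1 only. At each time the lowest share of the muscle list was 0%. Over all tested miRNAs 0.69% were called on day 2.

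The RD groups differed in make-up, so RD cannot be fully told apart from survival and sex. Survivors numbered 4, 3, 2, 4, 1 and 1 of 6, and males 2, 3, 1, 5, 5 and 3 of 6, from 6.0 to 8.5 Gy. In survivors against deceased NHPs, none of the 4 miRNAs passed before or after irradiation, and 0% of all tested miRNAs were called at either time (18 and 20 of 290 below an unadjusted p of 0.05). After irradiation, the median miR-486-5p level was 19.51 in libraries of survivors (16.83 to 22.99) and 19.37 in those of deceased animals (16.7 to 23.21). The log2 difference of the summed counts had the opposite sign to these medians, at -0.73 (SE 0.43, adjusted p = 0.766 by edgeR), and was -0.16 without RA0724F, a deceased animal. For miR-451, miR-144 and miR-486-3p it was -0.29, -0.08 and -0.18 (SE 0.21 to 0.23).

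In males against females, the 4 miRNAs did not pass either. Before irradiation 0% of tested miRNAs were called (18 of 290 below an unadjusted p of 0.05), and after it 0.69%. The largest of the 8 differences was that of miR-486-5p after irradiation, -0.88 log2 units (SE 0.41, unadjusted p = 0.0366, adjusted p = 0.312 by edgeR). It was -0.22 without RA0724F, a female. Median levels were 19.00 in libraries of males and 19.78 in those of females. Before irradiation miR-451 was at a median of 12.08 in males and 11.90 in females (log2 difference 0.57, SE 0.29, adjusted p = 0.749 by edgeR).

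Within each time, miR-451 and miR-144 followed each other across animals. Pearson's r of their levels was 0.70, 0.71 and 0.75 on days 1, 2 and 6, against 0.71 before irradiation (n = 36 each). Spearman's rho was 0.81, 0.75 and 0.57 on days 1, 2 and 6, against 0.78 before irradiation. Adjusted over 24 relations, the permutation p of r was 4.8e-05 at 3 of the times and 8e-05 on day 6. Without the 2 animals farthest from the median of miR-451, r was 0.69, 0.71 and 0.62, against 0.67 before irradiation. miR-486-3p followed miR-451 as well, with r of 0.49, 0.59 and 0.55 on days 1, 2 and 6, against 0.66 before irradiation (adjusted permutation p of 4.8e-05 to 0.00355). With miR-144 its r was 0.25, 0.38 and 0.63 on days 1, 2 and 6, against 0.70 before irradiation, and its rho was 0.29, 0.58 and 0.33, against 0.70. On day 2 rho passed and r did not (adjusted permutation p of 0.00096 and 0.0564), on day 6 r passed and rho did not (0.00355 and 0.103), and on day 1 neither passed. Differences between times were not tested.

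The relations of miR-486-5p to the other 3, its own hairpin partner included, were weaker or of unstable sign. Its r with miR-486-3p was -0.09, -0.36 and -0.42 on days 1, 2 and 6, against -0.11 before irradiation. Only the day 6 value passed (adjusted permutation p = 0.0241), Spearman's rho did not (-0.22, adjusted permutation p = 0.267), and without shallow libraries r was -0.38 with an adjusted permutation p of 0.0548. With miR-451 its r was 0.34, 0.10 and -0.22 on days 1, 2 and 6, against 0.23 before irradiation, and with miR-144 it was 0.03, -0.05 and -0.29, against -0.14. None of these passed on r, and on rho miR-451 on day 1 did (0.42, adjusted permutation p = 0.0254). Without the 2 animals farthest from the median of miR-486-5p, r of the arms turned to 0.43 on day 1 and 0.14 before irradiation, and was -0.40 and -0.47 on days 2 and 6. In the same 34 animals r with miR-451 was 0.45, 0.14 and -0.35 on days 1, 2 and 6, against 0.36 before irradiation, and r with miR-144 was 0.06, -0.01 and -0.36, against 0.20.

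**Figure D5:**
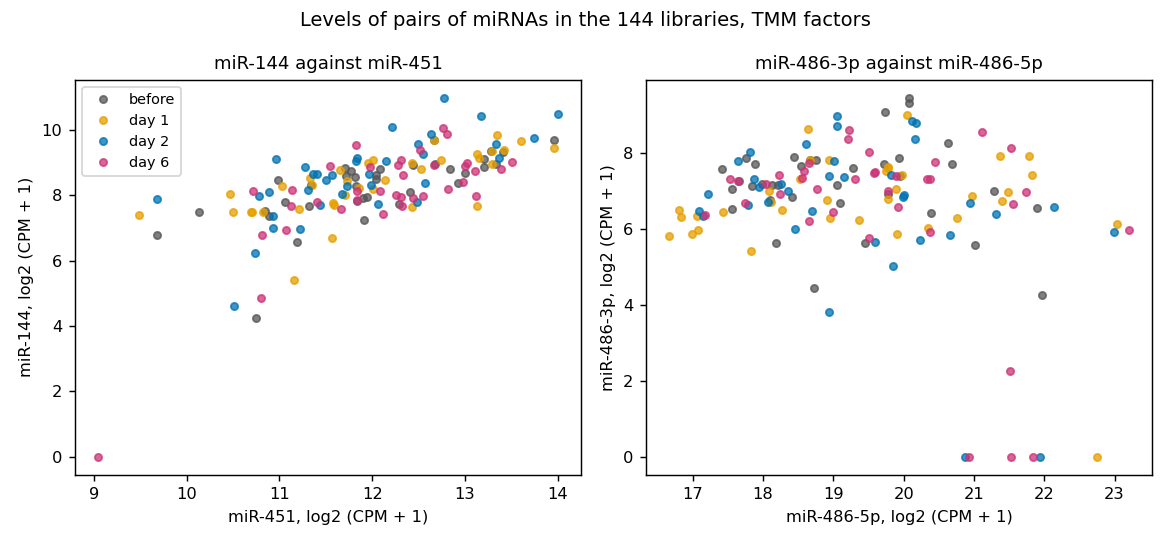
Levels of pairs of miRNAs, log2 (CPM + 1) with TMM factors, in the 144 libraries; left, miR-144 (y axis) against miR-451 (x axis), and right, miR-486-3p (y axis) against miR-486-5p (x axis), with colours for the 4 times. miR-144 climbs with miR-451 at every time (r of 0.70 to 0.75), while the 6 libraries without miR-486-3p counts lie at miR-486-5p levels of 20.9 to 22.7.

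These relations depended on the scale. With plain library totals, r between miR-451 and miR-144 and between miR-486-3p and either of them was positive and passed at every time, and r of miR-486-5p with the other 3 was between -0.72 and -0.53, also passing at every time. A miRNA that takes most of the counts lowers all other shares as its own rises. Negative values with it and positive values among the others therefore arise in part by construction on that scale.

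The miRNAs closest to each of the 4 differed in the same way. Over all 144 libraries, which share animals and scaling factors, so that r is only a description, the miRNAs most like miR-486-5p were miR-92a-3p (r = 0.90), miR-92b-3p (0.88), miR-423-5p (0.77), miR-484 (0.75) and miR-182 (0.70). miR-451 was number 32, miR-144 number 75 and miR-486-3p number 109 of 289. With library totals these 5 had r between -0.72 and 0.19, while the median r over all 289 others was -0.62 there, against -0.37 with TMM factors. On that scale miR-182, miR-92b-3p and miR-92a-3p were still number 2, 6 and 12, and miR-484 and miR-423-5p number 57 and 241. miR-451 was most like miR-16-5p (0.77), miR-25 (0.68) and miR-144 (0.67), followed by miR-16-2-3p (0.59) and miR-486-3p (0.53). miR-144 was most like miR-451 (0.67), followed by miR-30e-5p (0.60), miR-16-5p (0.59), miR-16-2-3p (0.58) and miR-32-5p (0.54). miR-486-3p was most like miR-16-2-3p (0.82), miR-30e-5p (0.72), miR-19a-3p (0.72), miR-107-3p (0.66) and miR-339-3p (0.66), and miR-486-5p was number 285 of 289 for it. The first neighbour of miR-451, miR-144 and miR-486-3p was the same with library totals. Their median r over all 289 others rose there to 0.57, 0.55 and 0.56, against 0.15, 0.19 and 0.28 with TMM factors.

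The share of miR-486-5p was negatively related to the number of miRNAs detected, which in part follows by construction, since a library filled by 1 miRNA leaves fewer counts for the others. Across the 36 animals, r of the share with the number of miRNAs detected was -0.64, -0.69 and -0.68 on days 1, 2 and 6, against -0.67 before irradiation (adjusted permutation p of 4.8e-05 to 0.000111). Spearman's rho was -0.67 to -0.70, and without the 2 libraries farthest from the median number, r was -0.66 to -0.58. With log10 of the library total r was between -0.21 and 0.05 and did not pass. With log2 of the TMM factor r was -0.92, -0.91 and -0.90 on days 1, 2 and 6, against -0.94 before irradiation (adjusted permutation p = 4.8e-05 each). TMM factors are computed from counts relative to the library total, so a miRNA that takes most of the counts moves them. The relation of share and factor thus also arises in part by construction, and the permutation p does not measure a link beyond that. The TMM factor divides every level in its library, so the level of miR-486-5p with TMM factors follows both its share and that factor. The shares of the other 3 miRNAs were positively related to the number of miRNAs detected, with r between 0.40 and 0.67 at all times. With log2 of the TMM factor their r was between 0.51 and 0.77, which also arises in part by construction. The part of the number of miRNAs detected in the results above was not tested.

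Levels after irradiation were also set against the baseline level of the same animal. Of 12 relations (4 miRNAs on 3 days) none passed after adjustment. The largest was miR-486-5p on day 6 against before irradiation (r = 0.45, rho = 0.34, permutation p = 0.00599, adjusted 0.0719, and r = 0.27 without the 2 animals farthest from the median).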

How the data were processed

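Per the labels and the methods of the study, small RNA libraries were made from serum with the TruSeq kit, sequenced on an Illumina NextSeq and demultiplexed with bcl2fastq2. The authors trimmed reads to 19 to 25 bases, which sets which isoforms were counted, and used Genomics Workbench to count those matching mature miRNAs in miRBase 22.1. The deposited values are raw counts, 1 column per library, and all columns were matched to samples. They did not include reads outside miRNAs, so totals are of miRNA counts.

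Here the 290 of 908 miRNAs counted in 40% or more of the libraries were tested with edgeR 4.0.16 (R 4.3.3, quasi-likelihood test, TMM factors, Benjamini-Hochberg over all 290, threshold 0.05). Times were compared over 144 libraries, and dose, survival and sex over animals, with counts of days 1, 2 and 6 summed. limma 3.58.1 and DESeq2 1.42.0 served as alternatives. Shares, ratios (0.5 added to counts) and correlations of log2 (CPM + 1) were tested by two-sided permutation over animals with 100000 draws, of which 1e-05 is the smallest possible p. Fits were also run on simulated counts with known changes, in which libraries of 1 animal were independent, so the simulation does not cover the pairing. Libraries of 1 animal had residuals with a mean r of 0.0787, against 0.00448 between animals, and the shared animal is what pairs them. The 4 miRNAs, the red cell list, the neighbour rule (5 highest r) and the tests were chosen with earlier results of these data known.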

Additional observations from a re-analysis of the deposited data

Results flagged for a closer look

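In groups of 6 animals (1 RD at 1 time), 10 of 96 sets of levels had 1 library far from the other 5, its gap to the nearest of them, as a share of the whole range, exceeding Dixon's critical value, where chance gives about 1 in 20. All 10 were of miR-486-3p or miR-144, and all 10 were low. Levels are log2 (CPM + 1) with TMM factors.

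For miR-486-3p, 5 of the 7 libraries were at a level of 0.00, with no counts. They were RA2689M on day 1 (8.0 Gy), with the other 5 at 5.81 to 7.82, RA2116F on day 2 (8.5 Gy, others 6.63 to 8.83), RA2021F on day 6 (7.0 Gy, others 6.36 to 7.50), RA2816M on day 6 (8.0 Gy, others 6.69 to 7.47) and RA2743F on day 6 (8.5 Gy, others 6.57 to 8.56). Of these RA2116F, RA2021F and RA2743F were among the 7 shallow libraries, and RA2689M had 257247 counts. RA1782F on day 6 (6.5 Gy) was at 2.25 from 2 counts of 1840802, with the others at 7.32 to 8.37. RA2596M before irradiation (8.0 Gy) was at 7.16 from 140 counts, with the others at 7.61 to 7.86.

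For miR-144, RA1782F on day 6 was also low, at 4.87 from 15 counts (others 7.94 to 8.81). RA2742F on day 1 (8.5 Gy) was at 5.41 from 1 count of 80610 (others 7.40 to 8.05), and RA2743F on day 6 was at 0.00 with no counts of 19254 (others 6.79 to 9.88). No difference in the change from baseline by sex, outcome or dose passed for the 4 miRNAs in 12 edgeR interaction tests (adjusted p of 0.989 to 0.997).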

How the results depend on the processing

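Of the edgeR results for the 4 miRNAs only the slope of miR-486-5p against dose after irradiation passed, and it lost its call in 7 of the alternatives beside single animals left out, with a value of -0.062 (library totals), -0.28 (total without miR-486-5p), -0.80 (DESeq2's own test, no longer passing), -0.48, -0.11 and -0.34 (days 1, 2 and 6 alone) and -0.33 (mean of the 3 levels, limma, an alternative chosen after seeing the data). With 1 animal left out it lay between -0.87 and -0.46 and was lost only without RA0724F. It kept its call with DESeq2 size factors, with other filters, without shallow or identical libraries and with sex and survival as terms. With library totals miR-486-5p can move little, since it makes up most of the counts. The causes were not tested. No value that failed the test came to pass in any of these alternatives. The day 2 ratio of miR-451 to miR-144 was -0.46 without shallow and identical libraries, where it no longer passed, and between -0.53 and -0.42 with 1 animal left out, both chosen after seeing the data.

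Values that did not pass changed sign as follows. With library totals, day 1 was -0.011 for miR-486-5p, -0.17 for miR-451 and -0.0035 for miR-144, and day 6 was -0.16 for miR-451 and -0.15 for miR-144. There the slopes on dose after irradiation were 0.17 for miR-486-3p and 0.12 for miR-451, the differences of males from females 0.18 and 0.20, those of survivors from deceased 0.045, 0.022 and, for miR-144, 0.18, and the change of miR-486-5p by dose -0.014. With the total without miR-486-5p, day 1 was -0.14 for miR-451 and -0.040 for miR-144, day 6 -0.22 and -0.16, the slopes 0.097 for miR-486-3p and 0.039 for miR-451, males from females 0.0033 and 0.046, and survivors from deceased 0.077 for miR-144. With DESeq2 size factors miR-451 was -0.021 on day 1 and -0.025 on day 6, and without a filter -0.043 and -0.016. miR-486-5p in males against females before irradiation was -0.088 with DESeq2 size factors, -0.13 with the stricter filter, -0.22 without shallow libraries and -0.019 without the identical ones, and in survivors against deceased it was 0.026 without a filter. Its change by dose was -0.00709 with the stricter filter and -0.098 without shallow libraries, where miR-451 on day 1 was -0.019. With dose, sex and survival together, the slopes before irradiation were -0.093 for miR-486-3p and -0.11 for miR-451, males from females after it 0.013 for miR-486-5p, 0.0071 for miR-486-3p and 0.083 for miR-451, and survivors from deceased 0.073 for miR-144.

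With the animal as a block, which pairs the 4 libraries of each animal, miR-451 on day 1 was -0.015, no call on the 4 miRNAs changed, and 4 in place of 19 miRNAs were called on day 6. On day 1 alone the slope of miR-144 was -0.15, miR-486-5p in males against females 0.56, and survivors from deceased 0.12 for miR-486-3p and 0.022 for miR-144. On day 2 alone the slopes were 0.34 for miR-486-3p and 0.25 for miR-451, males from females 0.14 and 0.12, and survivors from deceased 0.19 for both miR-486-5p and miR-144. On day 6 alone miR-486-3p in males against females was 0.0997 and miR-144 in survivors against deceased 0.062. With the mean of 3 levels males from females were 0.14 for miR-486-3p and 0.020 for miR-451. On the logit scale the day 1 change of share was 0.021 for miR-486-5p and -0.098 for miR-144. Without animals that had a shallow or identical library the share of miR-486-5p changed by 0.89, -0.57 and -0.21 percentage points on days 1, 2 and 6, and that of miR-144 by -0.0053 on day 1 and 0.0033 on day 6. Without counts of 0 the slope of the change of the miR-486 arm ratio was -0.0038.

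With 1 animal left out, ranges that crossed 0 were -0.15 to 0.14 (miR-451) and -0.023 to 0.20 (miR-144) on day 1, -0.053 to 0.12 and -0.062 to 0.12 on day 6, -0.054 to 0.38 (miR-486-3p) and -0.026 to 0.23 (miR-451) by dose before irradiation, -0.097 to 0.047 (miR-486-3p) by dose after it, -0.39 to 0.29 (miR-486-5p) in males against females before and -0.13 to 0.021 (miR-486-3p) and -0.18 to 0.011 (miR-451) after it, -0.72 to 0.040 (miR-486-5p) in survivors against deceased before and -0.17 to 0.010 (miR-144) after it, and -0.032 to 0.22 (miR-486-5p) and -0.15 to 0.051 (miR-144) for the change by dose.

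The correlations of miR-486-5p followed the scale. With library totals r at baseline and at days 1, 2 and 6 was -0.56, -0.53, -0.65 and -0.72 with miR-451, and -0.61, -0.64, -0.60 and -0.64 with miR-144. With miR-486-3p it was -0.64 before irradiation, -0.59 on day 1 and -0.63 on day 2. With the total without miR-486-5p, added after seeing the data, these were -0.16, -0.11, -0.33 and -0.52 with miR-451, -0.39 before irradiation, -0.39 on day 1 and -0.42 on day 6 with miR-144, and -0.39, -0.37 and -0.53 before irradiation and on days 1 and 2 with miR-486-3p. r of miR-486-3p with miR-144 on days 1 and 2 passed at 0.74 and 0.73 with library totals and at 0.43 and 0.43 with the total without miR-486-5p, and on day 2 at 0.47 with a pseudocount of 10 and at 0.53 without shallow libraries. Without shallow libraries the day 6 r of miR-451 was 0.38 with miR-486-3p and 0.0039 with miR-486-5p, and that of the miR-486 arms -0.38, none passing. With a pseudocount of 10 the arms on day 1 had r of 0.036.

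Over all tested miRNAs, calls by dose after irradiation numbered 32, against 0 with library totals, 8 with the total without miR-486-5p, 54 without a filter, 2, 5 and 16 on single days and 7 to 37 with 1 animal left out. Calls numbered 19 on day 1 (6 to 12 in 5 alternatives, 8 to 20 with 1 animal left out) and 19 on day 6 (5 with library totals, 51 without a filter, 10 with further terms, 11 to 27 with 1 animal left out). On day 2 (2 calls), by assigned dose (2) and by sex after irradiation (2), alternatives gave 1 to 17, 0 to 8 and 0 to 15. Splits of day 6 calls were 14 higher and 5 lower, 1 and 4 with library totals, 2 and 22 with the total without miR-486-5p. Counts of miR-486-3p limit its results most, with fewer than 10 in 30 libraries.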

Other observations

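miR-16-2-3p, the minor arm of a miR-16 hairpin, was among the 5 miRNAs most like miR-486-3p (r = 0.82), miR-451 (0.59) and miR-144 (0.58) over the 144 libraries, and it kept r of 0.91, 0.88 and 0.82 with library totals. With library totals the median r of these 3 with all 289 others was also high, at 0.56, 0.57 and 0.55. miR-16-2-3p was chosen after its values were seen, and these are descriptions of libraries that share animals.

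RA0724F, the animal without which the dose slope of miR-486-5p lost its call, had few counts of the thinner miRNAs for the size of its libraries. miR-144 had 31, 1 and 110 counts on days 1, 2 and 6, against 1 before irradiation, and miR-486-3p had 18, 4 and 23 counts, against 1 before irradiation. The library totals were 373161, 216090 and 4118401 on days 1, 2 and 6, against 253068 before irradiation. The 110 counts of miR-144 on day 6 equal its median count over the 144 libraries.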
